A study of Mus musculus with 110 samples.

Results

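The proteins that package lipid for transport in blood were followed through 10 genes chosen by name: the apolipoprotein genes Apoa1, Apoa2, Apoa4, Apoa5, Apob, Apoc1, Apoc2, Apoc3 and Apoe, and Mttp, which encodes the large subunit of the microsomal triglyceride transfer protein. All 10 were found by their Ensembl identifiers among the 56884 genes of the 3 count tables. mRNA was sequenced from liver, interscapular brown fat (iBAT), inguinal white fat (iWAT) and epididymal white fat (eWAT) of 28 male wild-type C57BL/6N mice, which were housed singly and were 16 weeks old at the end. Ctrl_RT mice ate a control diet with 0.86% methionine, by the sample labels, for 7 days at 22 °C, and MetR_RT mice ate a methionine-restricted diet with 0.12% methionine under the same conditions. Both diets lacked cysteine. Ctrl_CE and MetR_CE mice ate these diets for the same 7 days and were then kept at 4 °C for 24 h, so that the cold groups also had a further day on their diet, and the cold and that day cannot be told apart. Each group held 7 mice, and each gene was compared by diet, by temperature and by the combination, mainly in the liver.

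Lipoproteins are particles of triglyceride and cholesterol ester wrapped in phospholipid and apolipoproteins. The hepatocyte builds very low density lipoprotein (VLDL) by loading lipid onto apolipoprotein B with the help of the microsomal transfer protein, and it secretes apolipoprotein A-I, on which high density lipoprotein (HDL) forms as cells hand over cholesterol. The small C apolipoproteins, apolipoprotein E and apolipoprotein A-V move between particles and set how fast lipoprotein lipase empties them and how fast the liver takes up the remnants.

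The genes lie in a few places of the genome (GRCm38, start to end of the gene). Apoa1 (chr9:46228580-46230466), Apoc3 (chr9:46232933-46235636), Apoa4 (chr9:46240696-46243459) and Apoa5 (chr9:46268633-46271919) form a cluster on chromosome 9. Apoc2 (chr7:19671579-19677941), Apoc1 (chr7:19689481-19692660) and Apoe (chr7:19696109-19699188) form another on chromosome 7. Apob (chr12:7977648-8016835), Apoa2 (chr1:171225054-171226379) and Mttp (chr3:138089854-138144968) stand alone. The reads of Apoc2 cannot be fully separated from those of Gm44805, a transcript model on the same strand that shares 646 of the 813 exonic bases of Apoc2, and its values are uncertain for that reason. On the opposite strand, 34.9% of the exonic bases of Apoa4 are shared with Gm47528, which had a mean of 8.5 counts per liver library against 3279 for Apoa4, and 7.36% of those of Mttp with Trmt10a, with 92.0 against 7833 counts.

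The sequences upstream of 4 of these genes are shown because the neighbours Apoa1, Apoa4 and Apoa5 differed in how their liver mRNA moved with cold, and because Apob encodes the protein on which VLDL is built. They are from RefSeq's promoters on GRCm38.p6, plus strand, up to 250 bases before a transcript start and ending ahead of any annotated exon. Capitals mark the matches to 6 motifs searched on both strands: an HNF4-type core (CAAAGNNCA), a C/EBP core (TTGCNNAA), an E-box (CACGTG), the CRE (TGACGTCA), a sterol element core (TCACNCCAC) and the TATA box (TATAAA).
Apoa1, chr9:46228380-46228579: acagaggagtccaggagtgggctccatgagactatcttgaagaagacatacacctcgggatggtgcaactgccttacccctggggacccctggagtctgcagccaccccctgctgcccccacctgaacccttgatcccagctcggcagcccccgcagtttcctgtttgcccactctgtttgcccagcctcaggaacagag
Apoa4, chr9:46240594-46240695: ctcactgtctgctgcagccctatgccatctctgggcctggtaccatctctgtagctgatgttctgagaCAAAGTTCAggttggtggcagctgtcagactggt
Apoa5, chr9:46268358-46268607: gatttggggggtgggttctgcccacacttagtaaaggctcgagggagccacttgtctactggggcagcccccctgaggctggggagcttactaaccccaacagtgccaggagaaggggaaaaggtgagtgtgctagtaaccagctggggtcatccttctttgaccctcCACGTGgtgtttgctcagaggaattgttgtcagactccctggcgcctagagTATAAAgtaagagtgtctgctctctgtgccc
Apob, chr12:7977427-7977647: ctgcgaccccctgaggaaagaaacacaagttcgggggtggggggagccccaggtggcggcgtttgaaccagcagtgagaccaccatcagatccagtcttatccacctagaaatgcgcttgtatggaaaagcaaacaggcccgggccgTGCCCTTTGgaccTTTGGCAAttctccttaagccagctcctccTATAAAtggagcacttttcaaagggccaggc

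The Apoa4 stretch held the HNF4-type core at positions -182 to -174 from its RefSeq start, and Apob held it on the minus strand at -103 to -95. Apob also held the C/EBP core at -90 to -83, on the minus strand, and a TATA box at -60 to -55. Apoa5 held the E-box at -82 to -77 and a TATA box at -31 to -26. None of the 6 motifs stood in the Apoa1 stretch. Of 27025 promoters of 250 bases, 5.47% held the HNF4-type core, 9.55% the C/EBP core, 1.62% the CRE, 6.05% the E-box, 13% the TATA box and 1.04% the sterol element core. These matches are descriptions of letters, and binding was not measured.

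Counts were analysed for 105 of the 110 libraries, since the study left out 1 iBAT library and 4 eWAT libraries. The liver had 7 libraries per group, and the fat depots had 4 to 7 libraries per group. Total counts per library ran from 6987895 to 33444374, with a median of 14833327 in liver and of 22095096 over all tissues, and all 10 genes had counts in every liver library. The liver libraries carried hepatocyte markers at 72337 to 132421 CPM (counts relative to the library total, scaled for composition) in sum over 8 genes. Of the brown adipocyte markers Ucp1, Cidea and Elovl3, Ucp1 was at 0 in all liver libraries, and the sum of the list ran from 12.3 to 762 CPM. Only 1 of the 3 genes had enough counts in liver to be tested, so the sum came almost wholly from that gene. The sum of 5 adipocyte markers ran from 6.04 to 23.3 CPM. For 3 iBAT libraries a treatment tag named another group than the title, and they were placed by title. Fewer cells of a type and less RNA per cell cannot be told apart in such bulk samples.

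In the liver of Ctrl_RT mice the 10 genes together took 4.51% ± 0.330 of all counts (SD, n = 7). Per kilobase of exon, their levels spanned a wide range. Apoe stood first with 11036 ± 1049 CPM per kb (SD, n = 7), followed by Apoa2 with 8887 ± 769 CPM per kb and Apoa1 with 7249 ± 791 CPM per kb, and neighbours in this order overlapped in their libraries. Apoc1 with 2943 ± 293.6 CPM per kb and Apoc3 with 1527 ± 126 CPM per kb came next, each apart from its neighbours. Apoa5 (398 ± 76.03 CPM per kb), Apob (355 ± 33.3 CPM per kb), Apoa4 (136 ± 96.5 CPM per kb) and Mttp (65.4 ± 6.87 CPM per kb) formed a run in which each gene overlapped with the next. Apoc2, the activator of lipoprotein lipase, was lowest with 5.75 ± 1.55 CPM per kb, and over all liver groups it had as few as 36 counts in a library (Ctrl_CE replicate 4). This level and rank are uncertain, because its reads cannot be fully separated from those of Gm44805. The members' share of all counts was 3.56% ± 0.299 in Ctrl_CE, 4.78% ± 0.440 in MetR_RT and 3.80% ± 0.134 in MetR_CE.

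**Figure D1:**
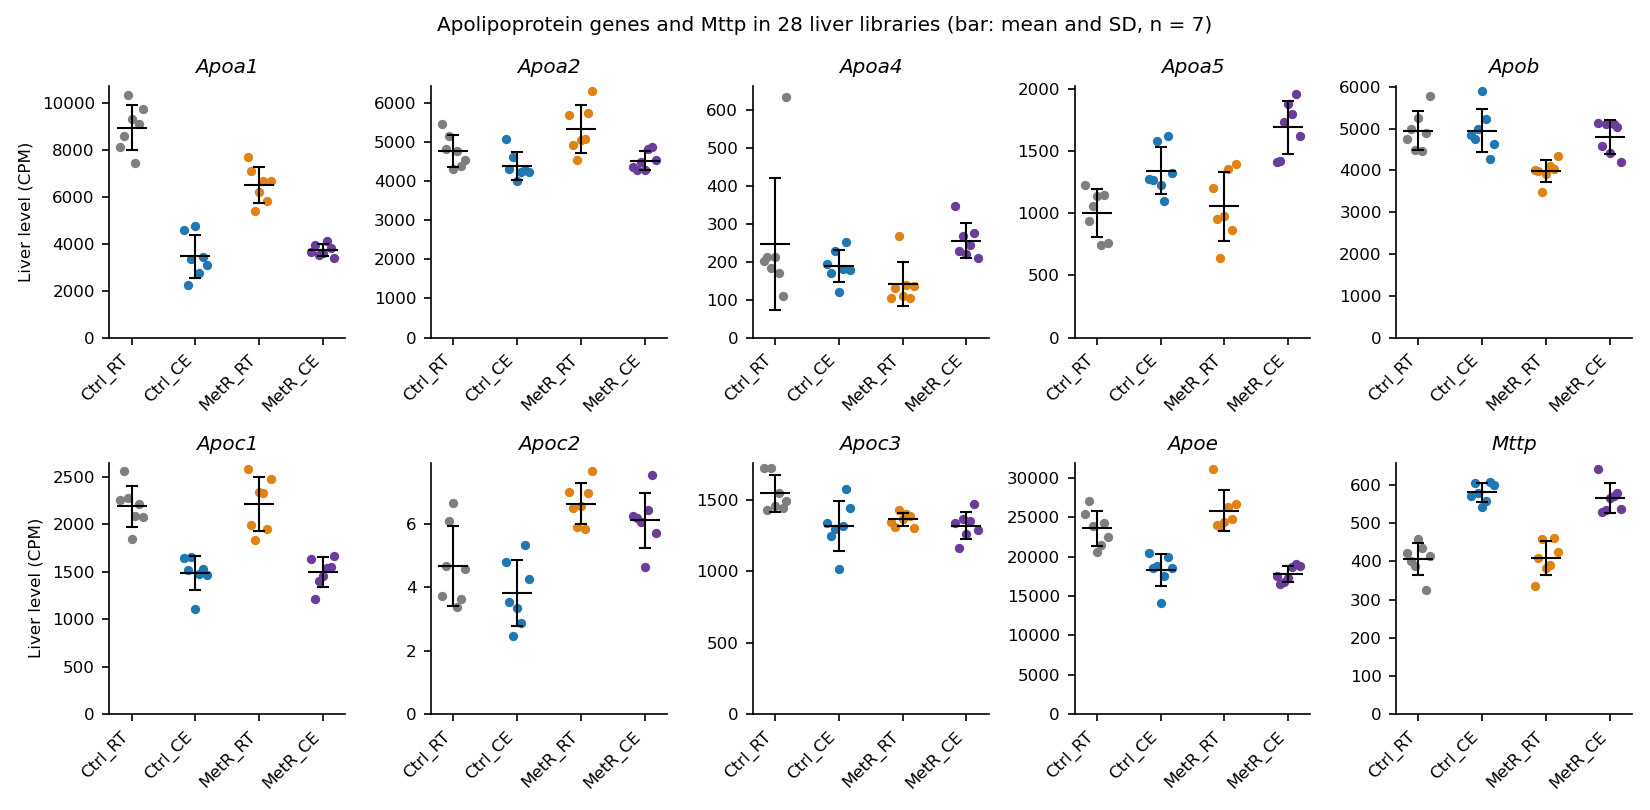
Level of each of the 10 genes in the 28 liver libraries, in CPM on a linear axis from 0, by group, with bars and error bars at the mean and SD of 7 mice. Apoa1, Apoc1 and Apoe are lower and Mttp is higher in both cold groups, while Apob is lowest in MetR_RT.

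Cold on the control diet lowered 4 of the 10 genes and raised 2 in the liver. Apoa1, Apoc1, Apoc3 and Apoe fell, and Mttp and Apoa5 rose, against 28.8% of the 22143 genes tested that differed between Ctrl_CE and Ctrl_RT (edgeR quasi-likelihood test, adjusted p under 0.05). Many of these 22143 genes had few counts. Among the 13748 genes left by a stricter filter on low counts, 6434 passed in this contrast. The median log2 fold change of the 10 genes was -0.26, beside -0.01 for all genes. For 4 of the genes, Apoa1, Apoc1, Apoe and Mttp, no library of Ctrl_CE overlapped with Ctrl_RT, as held for 7.49% of all genes tested. With the study's additional threshold on the fold change, which 11.9% of all genes passed, Apoa1 alone was left.

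Apoa1, which encodes the main protein of HDL, had the largest change of the 10 genes against Ctrl_RT in both cold groups. Its level in Ctrl_RT ran from 7466 to 10329.5 CPM with a median of 9121, and in Ctrl_CE from 2244 to 4751 CPM with a median of 3363. It fell by 61.3% in Ctrl_CE (log2 fold change -1.37, SE 0.12, adjusted p = 2.5e-09). In MetR_RT the libraries ran from 5414 to 7689 CPM with a median of 6694, overlapping slightly with Ctrl_RT, and the level fell by 27.3% (log2 fold change -0.46, SE 0.12, adjusted p = 0.0062). In MetR_CE they ran from 3379 to 4123 CPM with a median of 3669, all below both room temperature groups, and the level fell by 58.5% against Ctrl_RT (log2 fold change -1.27, SE 0.12, adjusted p = 2.8e-09). Both cold groups thus lay at like levels, with a log2 difference of 0.10 between MetR_CE and Ctrl_CE that did not pass the test (adjusted p = 0.66). The interaction of diet and temperature was 0.56 (SE 0.17, adjusted p = 0.079), where 1.76% of all genes passed. It passed with DESeq2, with a stricter filter on low counts, and without Ctrl_CE replicate 1 or replicate 4, with values from 0.57 to 0.66. Hepatocyte markers did not move as a block: Alb had a log2 fold change of 0.11 in Ctrl_CE (adjusted p = 0.56) and of -0.35 in MetR_CE (adjusted p = 0.031), and 3 and 5 of the 8 markers were lower, with 1 and 2 higher.

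The genes most like Apoa1 across the 28 liver libraries, among 12513 compared by Pearson correlation of log2 CPM, were Serpina1a (0.935), F10 (0.914), Cdk2ap2 (0.914), Rrbp1 (0.912) and Serpinf2 (0.909). Within the groups these correlations were 0.28 to 0.49. All 28 points share the 4 groups, and the values are a description.

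Apoa2 encodes the second protein of HDL. Its libraries ran from 4313 to 5445 CPM in Ctrl_RT (median 4779) and from 3987 to 5081 CPM in Ctrl_CE (median 4276), so that the groups overlapped. In MetR_RT they ran from 4537 to 6311 CPM (median 5085) and in MetR_CE from 4282 to 4865 CPM (median 4476). No group passed the test against Ctrl_RT, with log2 fold changes of -0.12 in Ctrl_CE (adjusted p = 0.24), 0.16 in MetR_RT (adjusted p = 0.15) and -0.08 in MetR_CE (adjusted p = 0.48). With library totals alone as the scale the MetR_RT value was 0.27 and passed (adjusted p = 0.010). On the restricted diet Apoa2 fell with cold by 0.24 on the log2 scale (SE 0.07, adjusted p = 0.026), a call that was lost without MetR_CE replicate 2 or 4 or MetR_RT replicate 1, 6 or 7 (adjusted p of 0.052 to 0.0999), and with library totals alone (adjusted p = 0.084). Against Ctrl_RT, the Apoa1 mRNA had a log2 change of -1.37 with cold and the Apoa2 mRNA one of -0.12, although their levels per kb overlapped at room temperature.

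Mttp, whose product loads lipid onto apolipoprotein B, rose with cold on both diets. The libraries ran from 325 to 458 CPM in Ctrl_RT (median 415) and from 542 to 608 CPM in Ctrl_CE (median 579). They ran from 336 to 461 CPM in MetR_RT (median 409) and from 528 to 643 CPM in MetR_CE (median 567), so that every cold library was above every room temperature library. On the log2 scale the change was 0.52 in Ctrl_CE (SE 0.07, adjusted p = 2.4e-06), 0.48 in MetR_CE against Ctrl_RT (SE 0.07, adjusted p = 3.9e-06) and 0.47 in MetR_CE against MetR_RT (SE 0.07, adjusted p = 2.0e-05). The diet alone gave 0.01 (adjusted p = 0.95).

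Apob, which encodes the structural protein of VLDL, did not follow Mttp. It ran from 4462 to 5788 CPM in Ctrl_RT (median 4887) and from 4264 to 5897 CPM in Ctrl_CE (median 4856), with a log2 fold change of 0.00 (adjusted p = 1.0). In MetR_RT all 7 libraries, from 3481 to 4347 CPM (median 4001), were below those of Ctrl_RT, and the level fell by 19.7% (log2 fold change -0.32, SE 0.08, adjusted p = 0.0033). In MetR_CE the range was 4189 to 5140 CPM (median 5039). Against MetR_RT that was a rise of 0.27 on the log2 scale (SE 0.08, adjusted p = 0.011), and against Ctrl_RT a difference of -0.04 (adjusted p = 0.72). With library totals alone as the scale, the change with diet missed the threshold (-0.20, adjusted p = 0.050).

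Apoe, the ligand for uptake of remnant particles, was the most abundant of these mRNAs and fell with cold. Libraries ran from 20626 to 27103 CPM in Ctrl_RT (median 23855) and from 14154 to 20424 CPM in Ctrl_CE (median 18599), with no overlap. In MetR_RT they ran from 23719 to 31096 CPM (median 24710) and in MetR_CE from 16501 to 19031 CPM (median 17572). Apoe fell by 22.6% in Ctrl_CE (log2 fold change -0.37, SE 0.09, adjusted p = 0.0013), by 24.7% in MetR_CE against Ctrl_RT (-0.41, SE 0.09, adjusted p = 0.00038) and by 31.1% in MetR_CE against MetR_RT (-0.54, SE 0.09, adjusted p = 3.8e-05). Diet alone gave a log2 fold change of 0.13 (adjusted p = 0.33). Macrophages also make Apoe, and 10 of 12 markers of Kupffer cells and macrophages were higher in Ctrl_CE, with a median sum of 712 CPM (371 to 1522) against 505 CPM (409 to 578) in Ctrl_RT, while 8 were lower in MetR_RT (median 297.3 CPM, 199 to 375) and 3 in MetR_CE (median 361 CPM, 333 to 399). Their part in the Apoe values was not tested.

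Apoc1, next to Apoe on chromosome 7 and an inhibitor of lipoprotein uptake, also fell with cold. Its libraries ran from 1851 to 2559 CPM in Ctrl_RT (median 2213), from 1112 to 1657 CPM in Ctrl_CE (median 1516), from 1838 to 2579 CPM in MetR_RT (median 2334) and from 1210 to 1669 CPM in MetR_CE (median 1542). Every cold library was below every room temperature library. Its log2 change was -0.56 in Ctrl_CE (SE 0.09, adjusted p = 2.5e-05), -0.55 in MetR_CE against Ctrl_RT (SE 0.09, adjusted p = 2.2e-05) and -0.57 in MetR_CE against MetR_RT (SE 0.09, adjusted p = 4.6e-05), and with diet alone it was 0.02 (adjusted p = 0.94). Once the group means were removed, Apoc1 and Apoe correlated at 0.85 over the 28 livers, the highest value of any pair of the 10 genes, ahead of Apoa2 with Apoe (0.60) and Apoa2 with Apoc1 (0.59), and the lowest was Apob with Apoc3 (-0.47). These are descriptions over libraries that also share their depth and dissection.

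Apoc3 and Apoc2 act in opposite ways on lipoprotein lipase, as inhibitor and activator. Apoc3 ran from 1431 to 1729 CPM in Ctrl_RT (median 1497), from 1017 to 1580 CPM in Ctrl_CE (median 1319.9), from 1303 to 1430 CPM in MetR_RT (median 1370.1) and from 1165 to 1474 CPM in MetR_CE (median 1340.02). It was lower by 0.23 on the log2 scale in Ctrl_CE and in MetR_CE (SE 0.07 and adjusted p = 0.018 in both), calls that were both lost without Ctrl_RT replicate 1 or 3, and the former also without Ctrl_CE replicate 2 or 4. With library totals alone as the scale neither passed, with -0.16 in Ctrl_CE (adjusted p = 0.14) and -0.075 in MetR_CE (adjusted p = 0.53), and in a fit of the compared groups alone the Ctrl_CE call was lost (adjusted p = 0.086). The Apoc3 value of -0.18 in MetR_RT did not pass the test (adjusted p = 0.085), although those libraries did not overlap with Ctrl_RT, and it passed with DESeq2, with the stricter filter on low counts and without Ctrl_CE replicate 4 (-0.20 to -0.19, adjusted p of 0.021 to 0.035). Apoc2 had 3.38 to 6.66 CPM in Ctrl_RT (median 4.58), 2.45 to 5.34 CPM in Ctrl_CE (median 3.54), 5.83 to 7.67 CPM in MetR_RT (median 6.55) and 4.63 to 7.54 CPM in MetR_CE (median 6.17). Apoc2 was raised by the diet at room temperature (log2 fold change 0.50, SE 0.15, adjusted p = 0.020), and the call was lost without Ctrl_RT replicate 1, 5 or 6 or MetR_RT replicate 7 (adjusted p of 0.053 to 0.055). By this test it was the member that differed between MetR_CE and Ctrl_CE (0.67, SE 0.16, adjusted p = 0.0036), where 12.1% of all genes differed. With library totals alone Apoa5 was added, and with only the compared groups in the model Apoa5 and Apoa4. The shared exons with Gm44805 hold for both values.

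Apoa5 and Apoa4 lie at the far end of the chromosome 9 cluster. Apoa5, whose product promotes the clearance of triglyceride, ran from 748 to 1229.95 CPM in Ctrl_RT (median 1063) and from 1097 to 1624 CPM in Ctrl_CE (median 1277), and rose by 0.42 on the log2 scale (SE 0.14, adjusted p = 0.022). Without Ctrl_RT replicate 7 that value was 0.37 with an adjusted p of 0.050, on the other side of the threshold. It ran from 640 to 1399 CPM in MetR_RT (median 975, log2 fold change 0.07, adjusted p = 0.79) and from 1416 to 1959 CPM in MetR_CE (median 1736), above every room temperature library. The log2 fold change of MetR_CE was 0.75 against Ctrl_RT (SE 0.14, adjusted p = 8.7e-05) and 0.68 against MetR_RT (SE 0.14, adjusted p = 0.00067). The difference between the cold groups, 0.33, did not pass the test (adjusted p = 0.12), but it passed with library totals alone (0.42, adjusted p = 0.038) and in a fit of both cold groups alone (0.33, adjusted p = 0.034).

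Apoa4, a protein of triglyceride-rich particles that the liver makes variably, spread most. Ctrl_RT ran from 111 to 635 CPM (median 201), Ctrl_CE from 120 to 252.7 CPM (median 181), MetR_RT from 103 to 268.9 CPM (median 131) and MetR_CE from 211 to 346 CPM (median 243.9). The value of 635 CPM was that of Ctrl_RT replicate 7, and the other Ctrl_RT libraries stood well below it. Apoa4 was lower in MetR_RT by 0.80 on the log2 scale (SE 0.26, adjusted p = 0.028), a call that was lost without Ctrl_RT replicate 7 (-0.37, adjusted p = 0.20) without MetR_RT replicate 1, 4 or 6, with library totals alone and with only the compared groups in the model. It was higher in MetR_CE than in MetR_RT by 0.85 (SE 0.26, adjusted p = 0.020), while the cold alone gave -0.38 (SE 0.26, adjusted p = 0.29), MetR_CE against Ctrl_CE gave 0.43 (adjusted p = 0.31, or 0.045 in a fit of both cold groups alone) and MetR_CE against Ctrl_RT gave 0.05 (adjusted p = 0.91), or 0.50 without Ctrl_RT replicate 7 (adjusted p = 0.049). The interaction of 1.24 (SE 0.37, adjusted p = 0.074) passed with DESeq2 and without Ctrl_RT replicate 6 or MetR_RT replicate 3.

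The other counts over the 10 genes were as follows. MetR_RT against Ctrl_RT had 4 genes that passed, 1 higher and 3 lower, where 18.8% of all genes passed, with a median of 0.01 beside 0.00. MetR_CE against Ctrl_RT had 6, 2 higher and 4 lower, where 30.3% passed, with medians of -0.06 and -0.04, and MetR_CE against MetR_RT had 8, 4 in each direction, where 18% passed, with medians of -0.08 and -0.04. Among the 13748 genes left by a stricter filter on low counts, 4298, 6590 and 4313 passed in these contrasts, in the same order. The interaction had none by edgeR, 3 at an unadjusted p under 0.05 and 2 by DESeq2, namely Apoa1 and Apoa4. These contrasts share their groups, 3 of them the Ctrl_RT libraries, so the counts are not independent of each other. With the study's threshold on the fold change, Apoa4 was left in MetR_RT (6.91% of all genes), Apoa1 and Apoa5 in MetR_CE (13.5%), Apoa1, Apoa4 and Apoa5 in MetR_CE against MetR_RT (5.18%), Apoc2 in MetR_CE against Ctrl_CE (5.26%), and none in the interaction (1.06%).

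**Figure D2:**
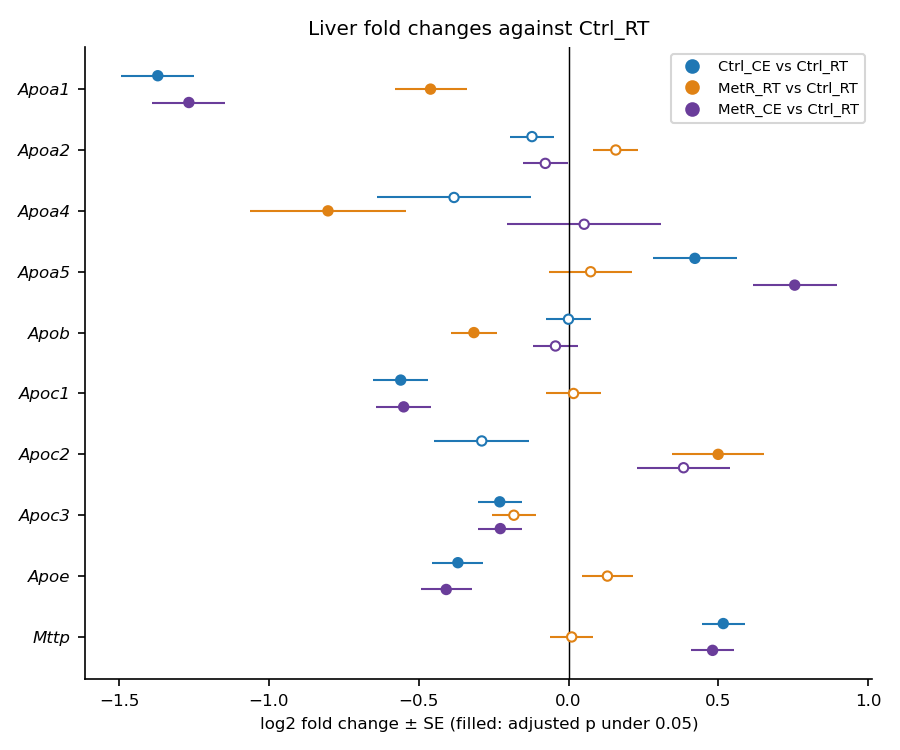
Log2 fold changes of the 10 genes in liver against Ctrl_RT, with bars of 1 SE, for Ctrl_CE, MetR_RT and MetR_CE (7 mice per group), and filled points where the adjusted p was under 0.05. Apoa1 lies furthest to the left in both cold groups, with -1.37 in Ctrl_CE. In MetR_RT it has -0.46, and Apoa4 lies further to the left. Mttp and Apoa5 lie to the right in the cold groups.

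The 71 further genes of lipoprotein metabolism, in 5 lists, were all tested in liver. Of these, 38 differed in Ctrl_CE (21 higher and 17 lower, where 28.8% of all genes passed), 32 in MetR_RT (15 higher and 17 lower, where 18.8% passed) and 40 in MetR_CE (23 higher and 17 lower, where 30.3% passed) against Ctrl_RT, with median log2 fold changes of 0.07, -0.03 and 0.02 beside -0.01, 0.00 and -0.04 for all genes. Between MetR_CE and MetR_RT 27 differed (18% of all genes), between MetR_CE and Ctrl_CE 18 (12.1%), and by the interaction 4 (1.76%). The counts of each list stand beside these same shares, and none is called particular to its list. Among the 13748 genes left by a stricter filter on low counts, 6434, 4298 and 6590 passed in Ctrl_CE, MetR_RT and MetR_CE against Ctrl_RT.

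Among the 12 other apolipoproteins, 8 fell and none rose in Ctrl_CE. MetR_RT had 4 lower and 3 higher, and MetR_CE 5 lower and 2 higher. Clu, a secreted chaperone found on HDL, fell from a mean of 2906 CPM in Ctrl_RT, with log2 fold changes of -0.81 in Ctrl_CE, -1.07 in MetR_RT and -1.52 in MetR_CE (SE 0.12 and adjusted p of at most 7.3e-06 in each). Saa4, a constitutive serum amyloid of HDL, fell as well, with -1.43, -2.23 and -2.71 in the same order (SE 0.28 to 0.29), and so did Apon, with -0.38, -0.97 and -0.93. Pon1, the HDL esterase, went the other way with diet: 0.93 in MetR_RT (SE 0.09, adjusted p = 2.0e-08) and 0.77 in MetR_CE, with 0.16 in Ctrl_CE (adjusted p = 0.21). Apol9a and Apol9b had values of -1.46 and -1.47 in Ctrl_CE (adjusted p = 2.3e-05 and 1.0e-05), and in MetR_RT of -0.20 and 0.17, which did not pass. These last 2 genes are near copies whose reads can be split between them.

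Of the 20 genes for the assembly and secretion of lipoproteins, 6 rose and 1 fell in Ctrl_CE, 8 rose and 3 fell in MetR_RT, and 10 rose and 2 fell in MetR_CE, where 28.8%, 18.8% and 30.3% of all genes passed. Sec23a, of the coat of vesicles that leave the endoplasmic reticulum, had log2 fold changes of 0.59 in Ctrl_CE (SE 0.07, adjusted p = 2.2e-07), 0.11 in MetR_RT (adjusted p = 0.28) and 0.75 in MetR_CE (SE 0.07, adjusted p = 1.3e-09). A1cf, the cofactor of Apob mRNA editing, rose by 0.69, 0.34 and 0.96. Mia2, which sorts large cargo into those vesicles, rose by 0.36, 0.32 and 0.47, and its relative Mia3 rose by 0.42 in MetR_RT and 0.52 in MetR_CE, with 0.19 in Ctrl_CE (adjusted p = 0.061). Soat2, which esterifies cholesterol for the particle core, rose by 1.11 in MetR_RT (SE 0.11, adjusted p = 1.9e-08) and 0.44 in MetR_CE, and had -0.25 in Ctrl_CE (adjusted p = 0.10). Pla2g12b fell in all 3 comparisons, with -0.48, -0.35 and -0.67. In Ctrl_CE, Mttp, Sec23a, A1cf and Mia2 all rose, but the latter genes were named for their small adjusted p in these same data. Of the 20 genes in the list, 7 passed there, and Pla2g12b was lower. A1cf and Mia2 also rose with diet alone, which Mttp did not. Mia2 did not pass in MetR_CE against MetR_RT, where Mttp did. Whether these genes share a response to cold was not tested.

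Among the 14 genes of receptors and clearance, 7 rose and 4 fell in Ctrl_CE, 3 rose and 4 fell in MetR_RT, and 6 rose and 5 fell in MetR_CE. Vldlr, a receptor for triglyceride-rich particles that is scarce in liver, had a mean of 0.992 CPM in Ctrl_RT, 2.89 CPM in Ctrl_CE, 10.2 CPM in MetR_RT and 8.65 CPM in MetR_CE, with log2 fold changes of 1.56, 3.36 and 3.14 (SE 0.21 to 0.22) and an interaction of -1.79 (SE 0.28, adjusted p = 0.0017). Scarb1, the HDL receptor, fell in each group, with -0.78, -0.65 and -0.82 (SE 0.10), with an interaction of 0.62 (SE 0.14, adjusted p = 0.022). Lpl, the lipase, fell with -0.56, -0.84 and -1.46, and Gpihbp1, its anchor on endothelium, rose by 0.91, 0.58 and 0.88. Mylip, which targets lipoprotein receptors for breakdown, rose by 0.59, 0.58 and 0.96. Lrp1, a remnant receptor, fell, with -0.81 in MetR_RT (SE 0.11, adjusted p = 2.4e-06) and -0.39 in MetR_CE, and had 0.11 in Ctrl_CE (adjusted p = 0.50). Beside Gpihbp1, all 7 tested endothelial markers were higher in Ctrl_CE and MetR_CE and 6 in MetR_RT, with a median sum of 176 CPM (158 to 220) in Ctrl_RT, 374 CPM (278.7 to 409) in Ctrl_CE, 249.9 CPM (229.6 to 294.5) in MetR_RT and 383 CPM (367 to 408) in MetR_CE, and 1 further marker, Fcn3, at 0. Of 7 stellate cell markers, 6, 5 and 5 were higher in Ctrl_CE, MetR_RT and MetR_CE. The endothelial list was written with the study's Ctrl_CE genes known, and the part of these cells in the values was not tested.

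The 4 genes of HDL formation had 2 higher and 1 lower in Ctrl_CE, and 2 lower in MetR_RT and in MetR_CE. Pltp, the phospholipid transfer protein, rose by 0.95 in Ctrl_CE (SE 0.12, adjusted p = 8.5e-07) and fell by 0.48 in MetR_RT (SE 0.12, adjusted p = 0.0065), with -0.16 in MetR_CE (adjusted p = 0.36). Lcat, which esterifies the cholesterol of HDL, fell with -0.34, -0.27 and -0.44. Abca1, the exporter of cholesterol to apolipoprotein A-I, fell by 0.35 in MetR_CE (SE 0.10, adjusted p = 0.0078), with -0.25 in Ctrl_CE (adjusted p = 0.067). Abcg1 rose by 0.43 in Ctrl_CE (SE 0.16, adjusted p = 0.042). Apoa1, Lcat and Scarb1 fell in all 3 groups, but the genes of HDL did not move as a set. Apoa2 passed in none of the 3, Pon1 rose in MetR_RT and MetR_CE, and Pltp and Abcg1 rose in Ctrl_CE.

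Of the 21 transcription factors known to act on apolipoprotein genes, 6 rose and 3 fell in Ctrl_CE, 1 rose and 4 fell in MetR_RT, and 5 rose and 3 fell in MetR_CE, where 28.8%, 18.8% and 30.3% of all genes passed. Ppara, the fatty acid sensor, had log2 fold changes of 1.33 in Ctrl_CE (SE 0.17, adjusted p = 1.1e-06), 0.00 in MetR_RT (adjusted p = 1.0) and 1.53 in MetR_CE (SE 0.17, adjusted p = 5.8e-08). The coactivator Ppargc1a had 1.13, 0.48 (adjusted p = 0.097) and 1.26, Ppargc1b rose by 0.70, 0.78 and 1.68, and Esrra, a nuclear receptor that works with both, rose by 0.42 in Ctrl_CE and 0.57 in MetR_CE with 0.22 in MetR_RT (adjusted p = 0.068). Hnf4a, a main regulator of hepatocyte genes, fell by 0.29 in MetR_RT (SE 0.08, adjusted p = 0.0062) and had 0.03 and -0.05 in the cold groups. Creb3l3 fell by 0.51 in MetR_RT (SE 0.12, adjusted p = 0.0033) and had -0.09 and -0.02 in Ctrl_CE and MetR_CE. Rxra fell by 0.28 in MetR_RT, with an interaction of 0.44 (SE 0.10, adjusted p = 0.026), and Nr1h2 fell by 0.28 in Ctrl_CE and by 0.27 in MetR_CE. The fourth factor that was lower in MetR_RT, Nr1h3, was also lower in Ctrl_CE and MetR_CE.

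**Figure D3:**
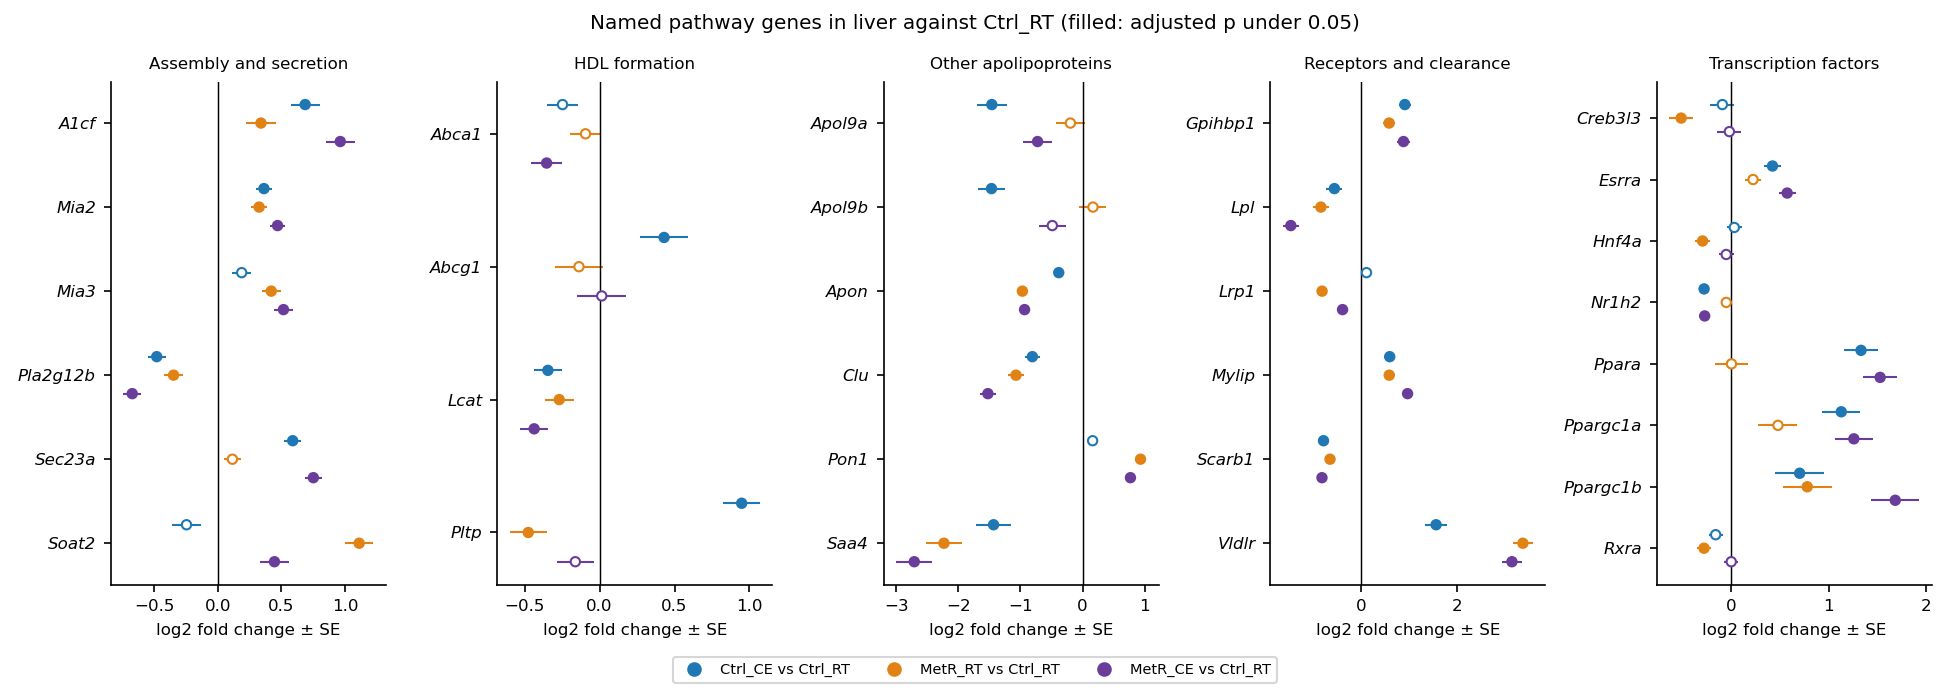
Log2 fold changes against Ctrl_RT, with bars of 1 SE, of the named genes of the 5 lists in liver, with filled points where the adjusted p was under 0.05 (7 mice per group). Vldlr reaches 3.36 in MetR_RT, Saa4 reaches -2.71 in MetR_CE, and Ppara and Ppargc1a lie to the right in the cold groups.

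In the fat depots Apoe and Apoc1 were the 2 abundant members. Apoe had a mean of 468 ± 74.5 CPM in iBAT of Ctrl_RT mice (SD, n = 6), 3945 ± 1027 CPM in iWAT (n = 7) and 4545 ± 837 CPM in eWAT (n = 4). Apoc1 went the other way, with 152 ± 17.2 CPM in iBAT, 82.4 ± 19.9 CPM in iWAT and 66.5 ± 10.05 CPM in eWAT. Each fat was fitted on its own, and these levels are set side by side only.

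In iBAT, Apoe fell with each treatment. Ctrl_RT libraries ran from 371 to 559 CPM (median 458), Ctrl_CE from 164 to 486 CPM (median 197), MetR_RT from 134 to 281.4 CPM (median 222) and MetR_CE from 108 to 234 CPM (median 122). MetR_RT and MetR_CE did not overlap with Ctrl_RT. The log2 fold change was -0.82 in Ctrl_CE (SE 0.24, adjusted p = 0.0075), -1.11 in MetR_RT (SE 0.23, adjusted p = 0.0026) and -1.63 in MetR_CE (SE 0.23, adjusted p = 1.5e-06), and MetR_CE was below Ctrl_CE by 0.82 (SE 0.23, adjusted p = 0.032). MetR_CE against MetR_RT gave -0.53 (adjusted p = 0.077), and the interaction gave 0.29 (adjusted p = 0.78). Of 11 macrophage markers tested there, 5 were lower in MetR_RT and 8 in MetR_CE, while 1 was higher in Ctrl_CE, with median sums of 94.2 CPM (90.9 to 146) in Ctrl_RT, 81.9 CPM (57.0 to 141) in Ctrl_CE, 56.1 CPM (45.7 to 86.4) in MetR_RT and 44.9 CPM (37.2 to 63.6) in MetR_CE. Their part in the fall of Apoe was not tested.

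Apoc1 in iBAT followed temperature. It ran from 135 to 176 CPM in Ctrl_RT (median 149), from 89.8 to 124 CPM in Ctrl_CE (median 117), from 137 to 196 CPM in MetR_RT (median 171) and from 108 to 141 CPM in MetR_CE (median 124). Ctrl_CE did not overlap with Ctrl_RT. The change was, in log2, -0.43 in Ctrl_CE (SE 0.09, adjusted p = 0.00026), 0.11 in MetR_RT (adjusted p = 0.50), -0.28 in MetR_CE (SE 0.08, adjusted p = 0.0088) and -0.39 in MetR_CE against MetR_RT (SE 0.08, adjusted p = 0.00040). With diet alone Apoe was called and Apoc1 was not, a difference between the genes that was not tested.

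Mttp in iBAT was low but counted in every library. It ran from 8.68 to 15.9 CPM in Ctrl_RT (median 11.002), from 4.91 to 8.32 CPM in Ctrl_CE (median 5.91), from 10.4 to 14.4 CPM in MetR_RT (median 12.3) and from 8.33 to 14.9 CPM in MetR_CE (median 10.5). Every Ctrl_CE library was below every library of the other groups in this depot, but narrowly. Ctrl_CE replicate 7 had 8.324 CPM and MetR_CE replicate 6 had 8.330 CPM. Log2 fold changes were -0.91 in Ctrl_CE (SE 0.14, adjusted p = 6.1e-06), -0.07 in MetR_CE (adjusted p = 0.72) and 0.84 in MetR_CE against Ctrl_CE (SE 0.14, adjusted p = 0.00061), and the interaction was 0.76 (SE 0.19, adjusted p = 0.048), where 0.903% of all genes passed. The interaction missed the threshold with all deposited libraries (adjusted p = 0.061), with the 3 tagged libraries moved by their tag (0.39) or left out (0.11). Over all genes, 216 of 23915 passed in the interaction by title and 1 by tag. With those libraries left out 106 of 23486 passed. Mttp moved down with cold in iBAT on the control diet and up in liver, a difference that was not tested.

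Over all members in iBAT, 9 were tested and Apoc2 had 0 counts in all 26 libraries. In Ctrl_CE 7 fell and none rose (33.2% of 23915 genes passed), in MetR_RT 2 fell (6.8%), in MetR_CE 5 fell (33.4%), in MetR_CE against MetR_RT 1 fell (25.5%), and in MetR_CE against Ctrl_CE 1 rose and 1 fell (4.78%). Medians of the 9 were -0.91, -1.11 and -1.63 against Ctrl_RT, beside -0.08, -0.04 and -0.10 for all genes. These medians include Apoa1, Apoa4, Apoa5 and Apob, traces that were highest in a single library, Ctrl_RT replicate 5. In Ctrl_CE these genes had values of -4.14 to -3.15, and without that library Apob had -0.55. The medians are therefore not read as a fall of the whole set. With the threshold on the fold change 14.7% of all genes passed in Ctrl_CE, 2.5% in MetR_RT, 14.7% in MetR_CE and 0.372% in the interaction, and 6, 2, 4 and 1 of the members. Several of these calls rest on Ctrl_RT replicate 5, which had 38.2 CPM of Alb, the liver's most abundant secreted protein, against a median of 0.214 CPM over the depot. The same library had 5.82 CPM of Apoa1, 3.19 of Apob, 3.15 of Apoa2, 1.14 of Apoa5 and 0.433 of Apoa4. Relative to the liver mean, that was 838 ppm for Alb, 1027 for Apoa1, 682 for Apob, 662 for Apoa2, 896 for Apoa5 and 2078 for Apoa4, the last from 11 counts. Without that library, an alternative chosen after seeing the data, 4 members passed in Ctrl_CE (Mttp, Apoc1, Apoe and Apoa1), 1 in MetR_RT, 2 in MetR_CE, 1 in MetR_CE against MetR_RT, 2 in MetR_CE against Ctrl_CE and 1 in the interaction, and Apoa1 had -2.11 in Ctrl_CE (adjusted p = 0.021), -0.96 in MetR_RT (adjusted p = 0.41) and -1.60 in MetR_CE (adjusted p = 0.059).

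In iWAT no contrast called Apoe or Apoc1 by edgeR. Apoe ran from 1957 to 5152 CPM in Ctrl_RT (median 4037), from 1786 to 4782 CPM in Ctrl_CE (median 3207), from 2177 to 4387 CPM in MetR_RT (median 2743) and from 1964 to 4012 CPM in MetR_CE (median 2488), with all groups overlapping. The log2 fold changes were -0.31 (adjusted p = 0.29), -0.37 (adjusted p = 0.23) and -0.55 (SE 0.22, adjusted p = 0.053), and the last passed with DESeq2 and with a stricter filter on low counts (adjusted p = 0.034 in both). Apoc1 had 0.09, 0.25 and -0.29 in the same order. Macrophage markers were lower for 8, 9 and 10 of 12, with 1, none and 1 higher, and their median sum was 1774 CPM (1678 to 2782) in Ctrl_RT, 760.0 CPM (358 to 1931) in Ctrl_CE, 535 CPM (298 to 1272) in MetR_RT and 310 CPM (235 to 579) in MetR_CE. Their part in the Apoe values was not tested.

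Of the 9 members tested in iWAT, 1 passed in Ctrl_CE (30.8% of 26428 genes), and none in MetR_RT (22.4%), MetR_CE (37%), MetR_CE against MetR_RT (5.41%), MetR_CE against Ctrl_CE (3.37%) or the interaction (2.95%), with 5, 1, 4, 5, 1 and 1 at an unadjusted p under 0.05. The gene that passed was Apoa5 (2.79, SE 0.98, adjusted p = 0.030), at 0 to 2 counts in Ctrl_RT and 0 to 3 counts in Ctrl_CE except for 18 in replicate 4. Apoa4 had counts in only 3 libraries and was not tested.

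In eWAT, Apoc1 was lowest in MetR_CE. It ran from 56.8 to 80.5 CPM in Ctrl_RT (n = 4, median 64.4), from 52.5 to 80.4 CPM in Ctrl_CE (median 74.1), from 28.1 to 81.5 CPM in MetR_RT (median 59.5) and from 25.1 to 51.96 CPM in MetR_CE (median 37.9). MetR_CE lay below all kept libraries of both control diet groups, while the 3 Ctrl_RT libraries that the study left out, at 34.5 to 45.3 CPM, were inside its range. The log2 fold change was -0.87 against Ctrl_CE (SE 0.19, adjusted p = 0.0043) and -0.77 against Ctrl_RT (SE 0.22, adjusted p = 0.060), the latter passing with DESeq2, with the stricter filter, and without MetR_CE replicate 1 or MetR_RT replicate 1, 4 or 6. Apoe had a mean of 4545 ± 837 CPM in Ctrl_RT, 4001 ± 1045 CPM in Ctrl_CE, 4046 ± 646 CPM in MetR_RT and 4447 ± 602 CPM in MetR_CE, and no contrast passed. Of the 10 members, Apoc1 in MetR_CE against Ctrl_CE was the only call (11.5% of 27786 genes). None passed in Ctrl_CE (5.27%), MetR_RT (0.148%), MetR_CE (2.7%), MetR_CE against MetR_RT (0.223%) or the interaction (3.07%), with 5, 1, 6, 3 and 0 at an unadjusted p under 0.05. DESeq2 called Apoe or Apoc1 1 further time in iWAT and 1 further time in eWAT. None of 12 macrophage markers passed in eWAT against Ctrl_RT.

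**Figure D4:**
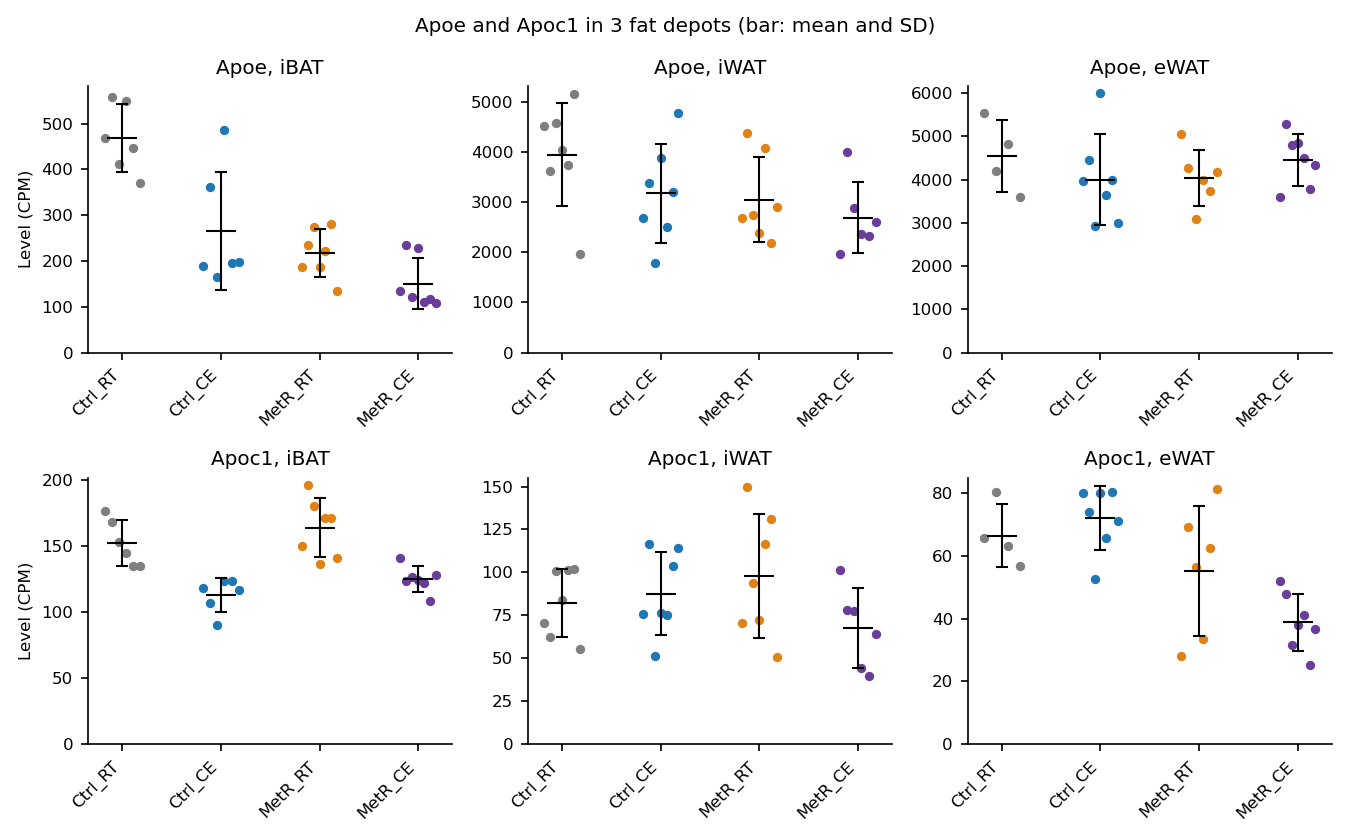
Level of Apoe (top) and Apoc1 (bottom) in the libraries of iBAT, iWAT and eWAT by group, in CPM from 0, with bars and error bars at the mean and SD of 4 to 7 mice. In iBAT all libraries of MetR_RT and MetR_CE lie below those of Ctrl_RT for Apoe, while the groups of both white depots overlap for Apoe.

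Whether the change with cold or with diet differed between depots was tested for Apoe and Apoc1 in 12 comparisons, and none passed by edgeR, with 3 at an unadjusted p under 0.05 and a smallest adjusted p of 0.16. That fit treated the depots of a mouse as independent. Between iBAT and iWAT 17% of genes differed in their change with cold and 8.3% in that with diet, between iWAT and eWAT 5.05% and 3.21%, and between iBAT and eWAT 8.84% and 0.176%. The change of Apoe with diet had a difference of -0.74 between iBAT and iWAT (SE 0.32, adjusted p = 0.16) and of -0.94 between iBAT and eWAT (SE 0.32, adjusted p = 0.26), and that of Apoc1 with cold had one of -0.54 between iBAT and eWAT (SE 0.24, adjusted p = 0.18). With limma and the mouse as a block, or with the stricter filter, none passed either. With all deposited libraries 2 passed, both for the change with cold between iBAT and eWAT, with -0.81 for Apoc1 (adjusted p = 0.025) and -0.91 for Apoe (adjusted p = 0.047).

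The other members were traces in fat, and were set against Alb, chosen beforehand as the reference for liver RNA. Per library, each level was taken in ppm of the mean level over the 28 livers. Apoe, Apoc1 and Mttp stood above Alb on that scale in every library of all 3 depots, and Apoc3 in 26 of 26 iBAT, 20 of 27 iWAT and 22 of 24 eWAT libraries. Above Alb in iBAT were also Apoa1 in 20, Apoa2 in 25 and Apob in 15 of 26 libraries, in eWAT Apoa1 in 3 and Apoa2 in 8 of 24, and in iWAT neither they nor Apoa5 in any. In iBAT these counts rest on few reads, with medians of 0.111 CPM for Apoa1, 0.0409 CPM for Apob and 0.214 CPM for Alb. In MetR_RT replicate 1, 1 count of Apob was 9.58 ppm and 1 count of Alb was 0.980 ppm, so 1 read could place Apob above Alb. Apoc3 had means of 1.67 to 2.15 CPM in iBAT, 2.50 to 5.31 CPM in iWAT and 1.88 to 3.34 CPM in eWAT, and Mttp had 6.58 to 7.91 CPM in iWAT and 5.43 to 8.17 CPM in eWAT. In iWAT, Alb was at 372 to 2112 ppm (median 1131) in all libraries, while medians were 34.3 for Apoa1, 98.4 for Apoa2, 11.2 for Apob and, of the other hepatocyte markers, 0 for Cps1, 13.2 for Ttr, 17.5 for Fgb, 19.03 for Ahsg, 116 for Serpina1c, 126785 for Trf and 241144 for Hp. These genes, listed as hepatocyte markers for liver, therefore did not stand in 1 ratio there. Alb was thus not a fixed reference for liver RNA in iWAT, and a level below Alb there is a description only. In eWAT, Alb and Apoa1 were high in the same libraries: Ctrl_CE replicate 5 had 56.5 CPM of Alb and 14.97 of Apoa1, Ctrl_CE replicate 6 had 153 and 11.5, MetR_CE replicate 5 had 108 and 18.1, MetR_CE replicate 6 had 58.2 and 5.97, and MetR_RT replicate 6 had 58.1 and 6.35, while the 4 Ctrl_RT libraries had at most 12.4 and 0.666. Transfer of liver RNA at dissection or later and low expression in fat were not tested against each other, and fold changes of Apoa1, Apoa2, Apoa4, Apoa5 and Apob in fat are not read further.

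**Figure D5:**
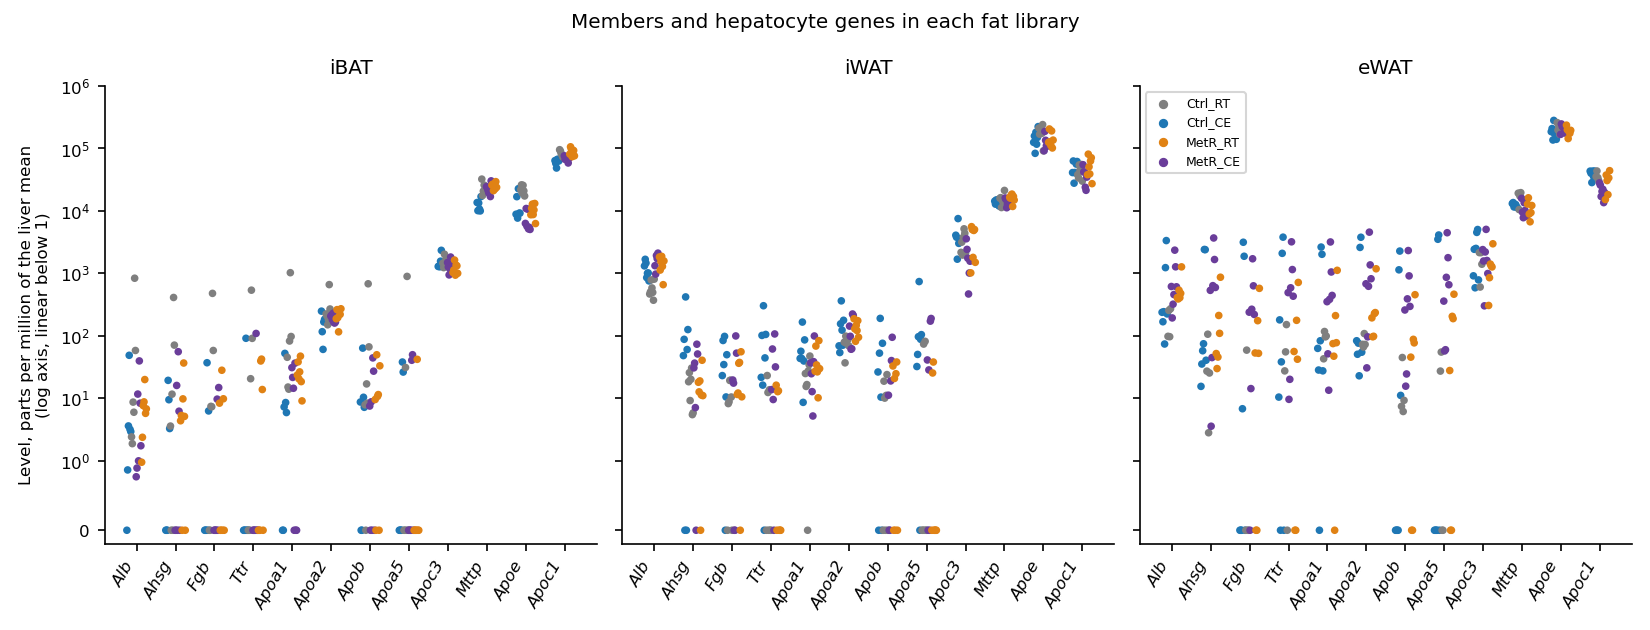
Level of 4 hepatocyte markers and of 8 of the members in each fat library, in ppm of the mean over 28 livers, on a log axis that is linear below 1. Apoe, Apoc1 and Mttp lie above Alb in every library of iBAT, iWAT and eWAT, and Apoa1, Apoa2, Apoa5 and Apob lie below Alb in all 27 iWAT libraries. In iWAT, Alb does not stand in a fixed ratio to the other hepatocyte markers.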

How the data were processed

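The files deposited by the authors are 3 tables of raw, unnormalized read counts (whole numbers, 1 row per Ensembl gene), whose 110 columns were each matched to a sample by the library name in its description. The study's methods and the submitters' processing notes name STAR 2.7.9a on mm10, featureCounts 2.0.3, Salmon 1.9.0, MultiQC 1.19 and DESeq2 1.46.0. The tables are named for Salmon although their values are whole, and whether the counting used strand is not given in the sources used here. Symbols, positions and exon lengths are from GENCODE M21 on GRCm38, and 51948 of 56884 identifiers matched. The 5 libraries left out were identified by comparing subsets with the study's mean normalised counts.

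Genes with at least 10 counts over a tissue's libraries were fitted with edgeR 4.0.16 in R 4.3.3 (TMM factors, quasi-likelihood test, all 4 groups in the fit, diet, temperature and their interaction), with Benjamini-Hochberg adjustment over all genes of a contrast, and calls at an adjusted p under 0.05. CPM use TMM factors. Differences between depots used a joint edgeR fit that treated the depots of a mouse as independent, with limma 3.58.1 and the mouse as a block as an alternative. DESeq2 1.42.0 was an alternative for the fits per tissue, in fat for Apoe, Apoc1 and Mttp only. The model was also run on simulated data, after the main fit and with levels and spread taken from that fit. The p-values measure the spread between mice of this one experiment. No 2 libraries of a group agreed within sampling noise.

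The members and lists were chosen with earlier results of these data known. Named were all members, the 3 genes of each list with the smallest adjusted p in each contrast with Ctrl_RT, the 5 genes most like the member with the smallest adjusted p, and Alb. Protein sequences, and promoters of Apoc1 and Apoc3, were not used here.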

Additional observations from a re-analysis of the deposited data

Results flagged for a closer look

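Of 100 groups of 4 to 7 libraries, 11 had 1 library far from the rest by Dixon's test, which chance gives in about 1 in 20 groups. In liver these were Apoa4 in Ctrl_RT replicate 7 (635 CPM, group median 201) and in MetR_RT replicate 3 (268.9 CPM, median 131), Apoc1 in Ctrl_CE replicate 4 (1112 CPM, median 1516) and Apoe in MetR_RT replicate 1 (31096 CPM, median 24710). In iBAT they were Apoa2 in Ctrl_RT replicate 5 (3.15 CPM, median 1.03), the library with the highest Alb of that depot, and Apoc3 in Ctrl_CE replicate 6 (3.25 CPM, median 1.83). In iWAT, Ctrl_CE replicate 4 stood apart for Apoa2 (1.73 CPM, median 0.587) and Apoc3 (10.5 CPM, median 4.84), and the same library held the 18 counts of Apoa5. In eWAT, Apoa2 stood apart in Ctrl_RT replicate 6 (0.518 CPM), MetR_RT replicate 6 (5.64 CPM) and MetR_CE replicate 5 (21.7 CPM), the latter pair being libraries with high Alb.

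The effect of cold on Mttp in iBAT differed between the diets by the interaction, with a value of 0.76 on the log2 scale and an adjusted p of 0.048 by edgeR. It missed the threshold with all deposited libraries and with the 3 tagged libraries moved by their tag or left out (adjusted p of 0.061 to 0.39). Of all 23915 genes, 1 passed in the interaction with the libraries moved by tag, against 216 by title.

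The eWAT libraries that the study left out held Mttp at 21.9 CPM (Ctrl_RT replicate 2), 10.1 CPM (Ctrl_RT replicate 4), 12.8 CPM (Ctrl_RT replicate 5) and 12.1 CPM (MetR_RT replicate 7), all above the highest Ctrl_RT library that was kept (9.63 CPM). With all libraries, Mttp in eWAT was lower in Ctrl_CE by 0.89 (adjusted p = 0.033) and in MetR_CE by 0.98 (adjusted p = 0.022). The left-out MetR_RT replicate 7 also held 12.4 CPM of Apoa2, above the highest of its group that was kept (5.64 CPM).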

How the results depend on the processing

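Counts of the 10 genes in liver did not move with RLE factors, with no filter or with the replicate block, each of which gave 6, 4, 6, 8, 1 and 0 calls in Ctrl_CE, MetR_RT and MetR_CE against Ctrl_RT, MetR_CE against MetR_RT and against Ctrl_CE, and the interaction, equal to the counts reported. In iBAT the replicate block gave Apoe in MetR_CE against MetR_RT a value of -0.61 (adjusted p = 0.0077), past the threshold. Replicate numbers did not pair the libraries, since they number different mice: same-numbered livers had a median correlation of deviations of -0.0064, 3 of 42 pairs were over 0.1, and 3 of 28 livers correlated best with their own number. In iBAT, iWAT and eWAT the medians were -0.043, 0.073 and 0.13, with 16 of 36, 17 of 39 and 15 of 30 pairs over 0.1, and 5 of 26, 4 of 27 and 7 of 24 libraries best with their own number. With the study's threshold on the fold change the first 4 were 1, 1, 2 and 3, the counts of the 71 further genes in the first 5 were 18, 13, 23, 11 and 11, and Apoe and Apoc1 had 3 calls in iBAT over the contrasts with Ctrl_RT and the interaction, against 5. MetR_CE against Ctrl_CE had 2 members with library totals alone (Apoc2 and Apoa5) and 3 (with Apoa4) when other groups were kept out of the fit. The interaction had 2 members and 12 further genes with DESeq2, and 1 and 8 with a stricter filter (filterByExpr). Over the contrasts with Ctrl_RT and the interaction, Apoe and Apoc1 had 1 call in iWAT and 1 in eWAT with either, against none. The differences between depots had 2 with all libraries.

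Leaving out each liver library in turn gave 5 to 6, 3 to 5, 5 to 7, 7 to 8, 1 and 0 to 1 members, in the order above, and 34 to 41, 28 to 39, 35 to 42, 22 to 29, 15 to 21 and 4 to 9 of the further genes. In eWAT it gave 0 to 1 calls of Apoe and Apoc1 over the contrasts with Ctrl_RT and the interaction, the 1 being Apoc1 in MetR_CE against Ctrl_RT, and without iBAT Ctrl_RT replicate 5 the members called were 4, 1, 2, 1, 2 and 1.

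Of 2864 member values compared, 113 changed sign, none of them called in either. Library totals alone turned Apoa2 and Apob in MetR_CE against Ctrl_RT to 0.075 and 0.11, and Mttp and Apob in MetR_CE against Ctrl_CE to 0.052 and 0.048. They also shifted the median of all genes to 0.11 in MetR_RT and 0.10 in MetR_CE, and the share of calls that were higher from 50.8%, 53.6% and 49.97% to 63.8%, 77.3% and 72.8% in Ctrl_CE, MetR_RT and MetR_CE. Apoa4 in Ctrl_CE ran from -0.50 to 0.067, the latter without Ctrl_RT replicate 7. With all libraries in eWAT, Apoe was 0.015 in Ctrl_CE and 0.19 in MetR_CE, and Mttp in MetR_CE against MetR_RT -0.18. The causes were not tested.

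Few counts limit Apoc2 in liver, with as few as 36, and the traces in fat. For Apoc2 the exons shared with Gm44805 are a further limit on its counts. Counts are of mRNA, so protein, secretion and lipoproteins in blood were not measured. With the 3 iBAT libraries placed by tag, MetR_CE against Ctrl_CE gave Apoe -0.74 (adjusted p = 0.28) and Mttp 0.62 (adjusted p = 0.18), both then short of the threshold. Of all 23915 genes, 5 passed in this contrast when placed by tag, against 1143 when placed by title, so the loss was not particular to these members.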
